A study of Apis mellifera with 6 samples.

Results

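The microRNA genes of the honey bee (Apis mellifera) midgut were taken as all rows whose gene identifier starts with Mir and a number, or with Mir followed by let, iab or bantam. This rule gave 30 of the 10013 genes, and it used names alone, no measured value. The RNA came from 6 samples of midgut. In 3 of them (controls 1, 2 and 3) bees had been fed sucrose solution with 0.5% DMSO, the solvent, and in the other 3 (tunicamycin samples 2, 3 and 4) the same with 24 µM tunicamycin, in both cases for 24 hours. The labels give no age, strain, colony or number of bees per sample. They also do not say that the samples came from separate cages, so each p-value covers spread among these 6 samples, possibly technical spread.

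A microRNA gene is transcribed as a long primary transcript, often capped and polyadenylated, or lies within a transcript of another gene. The nuclear enzyme Drosha cuts out a hairpin and Dicer cuts the hairpin into the short mature microRNA, which guides Argonaute proteins to target messages. Mature microRNAs carry no poly(A) tail, and the libraries were made from poly(A)-selected RNA, so the counts here are read as primary transcripts or as transcripts that cover the hairpin, not as mature microRNA. Tunicamycin blocks the first step of N-glycosylation so that proteins misfold in the endoplasmic reticulum; the series is titled for IRE1, a sensor of that stress. In mammalian cells the RNase of IRE1 has been reported to cut some microRNA precursors, which gives the background to looking at these genes.

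Depth over the listed genes was between 22763496 and 26278751 reads per sample. Hsc70-3, the chaperone BiP and a classical target of the stress response, served as the check of the treatment. It held 68417, 35140.1 and 25372 normalized reads in controls 1, 2 and 3, so control 1 was the highest control. Tunicamycin samples 2, 3 and 4 held 211942, 267564 and 317129, each above every control (log2 fold change 2.73, SE 0.40, limma adjusted p = 0.0279). This call was lost in the limma fits without control 2, control 3 or any 1 of the tunicamycin samples, with adjusted p from 0.0671 to 0.135, and with a block by deposited table (0.101) or by shared number (0.112). The log2 fold change stayed between 2.42 and 3.13 in all alternatives run. The alpha-glucosidases AGLU2, Hbg2 and Hbg3, 3 of 4 symbols searched as midgut digestive enzymes, summed to between 701920 and 1592447 normalized reads per sample. The share of each gene in this sum, and the tissue it came from, were not tested. Markers listed for other tissues summed to less. The microRNA genes themselves had a median of mean values of only 39.2 normalized reads, and the part of other tissues in them was not tested. Visceral muscle genes (6 of 11 symbols found) summed to between 4625 and 7792, fat body and gland genes (6 of 10) to between 1412 and 2458, and the hemocyte gene PPO was between 42.5 and 71.9. The neuronal and enteroendocrine genes Tk, NPF, Syt1 and Para (4 of 8) summed to 1729, 1643 and 1733 among controls and to 2541, 1931 and 1786 under tunicamycin. All 3 tunicamycin sums were above every control, by a narrow margin in sample 4. Among single genes, 11.0% of all genes had tunicamycin above every control. The share of each gene in this sum, and their part in the microRNA values, were not tested. None of these markers was at 0 in any sample. Control 1 stood apart on the second principal component of all genes (25.1% of the variance), at 48.7 against -21.3 and -14.3 for the other controls. Tunicamycin sample 3 lay at 6.2 on the first component (31.6% of the variance), against 28.6 and 35.8 for the rest of its group.

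Most microRNA genes held few reads. The median of their mean values was 39.2 normalized reads (reads over the size factor of the sample), against 384 for all genes, and 10 of the 30 had a mean under 20, against 6.8% of all genes. No microRNA gene was at 0 in any sample, and no listed gene of any kind had a mean under 9.89. Why other microRNA genes have no row was not tested. The reference table for assembly Amel_HAv3.1 holds 238 microRNA genes, 29 of which match members. Mir3732 was the member without a match, and the microRNA genes of the table that matched no row were not analysed here. At the low end counting error is wide: Mir9889 in tunicamycin sample 3 rested on 3 reads, with an exact 95% Poisson interval of 0.62 to 8.77 reads that covers counting error only. Levels were not compared between genes per length, because no gene length of the authors' annotation was used. Read counts depend on the length of the listed gene, so the lower counts are not read as lower transcript levels.

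**Figure D1:**
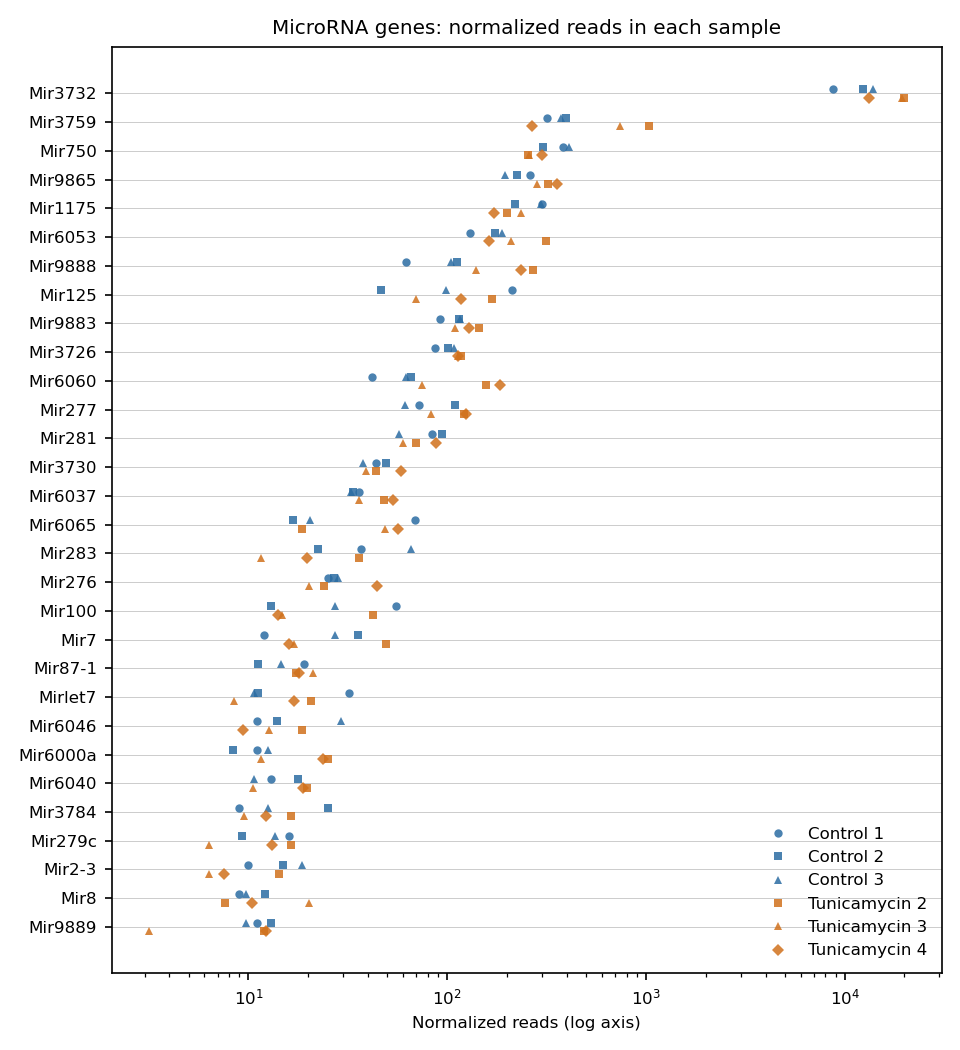
Normalized reads of the 30 microRNA genes (rows, ordered by mean) on a log axis, with 1 point per sample; blue marks controls, orange marks tunicamycin, and the shape gives the sample number. Mir3732 lies far to the right of the rest, between 8784 and 19959, and in most rows the colours are mixed.

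The question put to the groups was which microRNA transcripts respond to the inhibitor. These are whole midguts, so fewer cells of a type and less RNA per cell cannot be told apart. No microRNA gene passed at an adjusted p under 0.05 in limma, where 1.06% of all genes were higher and 0.0699% lower, or in edgeR, where the shares were 0.879% and 0.0599%. In DESeq2, 2 of the 20 microRNA genes that received an adjusted p were higher (10%), Mir6060 and Mir9888, and none was lower; its shares over all genes were 4.26% and 1.24%. At an unadjusted limma p under 0.05 there were 5 of the 30. The 4 higher ones (Mir6060, Mir9888, Mir9865 and Mir3732) make 13.3% of the members against 8.99% of all genes, and the single lower one (Mir750) makes 3.33% against 6.56%. Counts this small are near the shares over all genes and are not a result about the members as a group. Of the 30, 19 had a positive log2 fold change (63.3%, against 50.2% of all genes). The median was 0.17, against 0.001 for all genes, with a median SE of 0.39 against 0.20. The all-gene median and share of positive signs are largely set by the size-factor scaling. Genes of like read level were not compared, so no shift of the members is read from these values. Within each deposited table, which holds 1 sample of either group, the members' median difference was 0.35, 0.01 and 0.20 on the log2 scale.

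**Figure D2:**
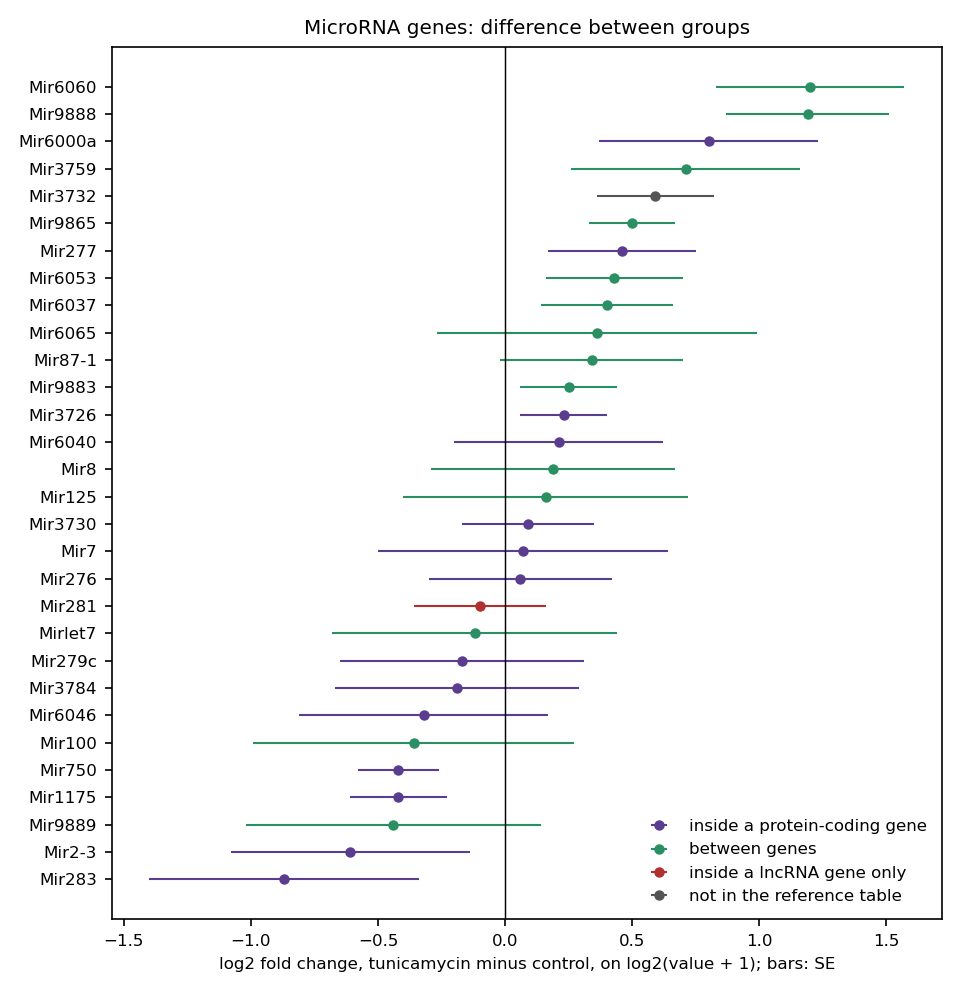
Log2 fold change of each microRNA gene, tunicamycin minus control, on log2(value + 1), with SE bars from limma (3 samples a group); colours give where the gene lies in the reference table. Values run from -0.87 (Mir283) to 1.20 (Mir6060), and 22 of 30 lie within 0.5 of zero.

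Mir6060 and Mir9888 had the largest positive fold changes of the 30. For Mir6060, controls 1, 2 and 3 gave 42.0, 66.1 and 62.2 normalized reads, and tunicamycin samples 2, 3 and 4 gave 156, 75.1 and 184. Each tunicamycin sample was above every control, and sample 3 was close to the controls. The fold was 2.30 (log2 1.20, SE 0.37; limma adjusted p = 0.197; edgeR 0.177; DESeq2 0.0274), so the call rests on DESeq2 alone. Mir9888 held 62.0, 112 and 105 without the inhibitor and 269, 139.5 and 234 with it. The groups again did not overlap, control 1 was the lowest control, and tunicamycin sample 3 was the lowest of its group. Its fold was 2.28 (log2 1.19, SE 0.32; limma adjusted p = 0.156; edgeR 0.159; DESeq2 0.0145). Without tunicamycin sample 3 the limma adjusted p was 0.0684 for Mir6060 and 0.0914 for Mir9888, and without control 1 it was 0.260 and 0.193.

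Both of these genes lie between other genes in the reference table. Beside Mir6060 the listed neighbour is the protein-coding LOC724919. It was at 5820.5, 6311 and 7157 normalized reads in the DMSO controls, and 12898, 9171 and 11591 with tunicamycin. Sample 3 was again its lowest tunicamycin sample, as it was for 19 of the 30 microRNA genes. Its groups did not overlap either, with tunicamycin above, which held for 11.0% of all genes. It had a log2 fold change of 0.79 (SE 0.16; limma adjusted p = 0.0851; DESeq2 adjusted p = 5.98e-04). Whether reads at Mir6060 belong to an extended transcript of LOC724919 was not tested. LOC100576986, the gene on the other side of Mir6060, had no row, so it could not be compared. The listed neighbour of Mir9888, LOC409882, was at 8336, 13983 and 12687 among controls, against 15894, 12451 and 12523 under tunicamycin. These groups overlapped (log2 0.25, SE 0.22; limma adjusted p = 0.632). Control 1 was the lowest control for LOC409882 as it was for Mir9888.

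**Figure D3:**
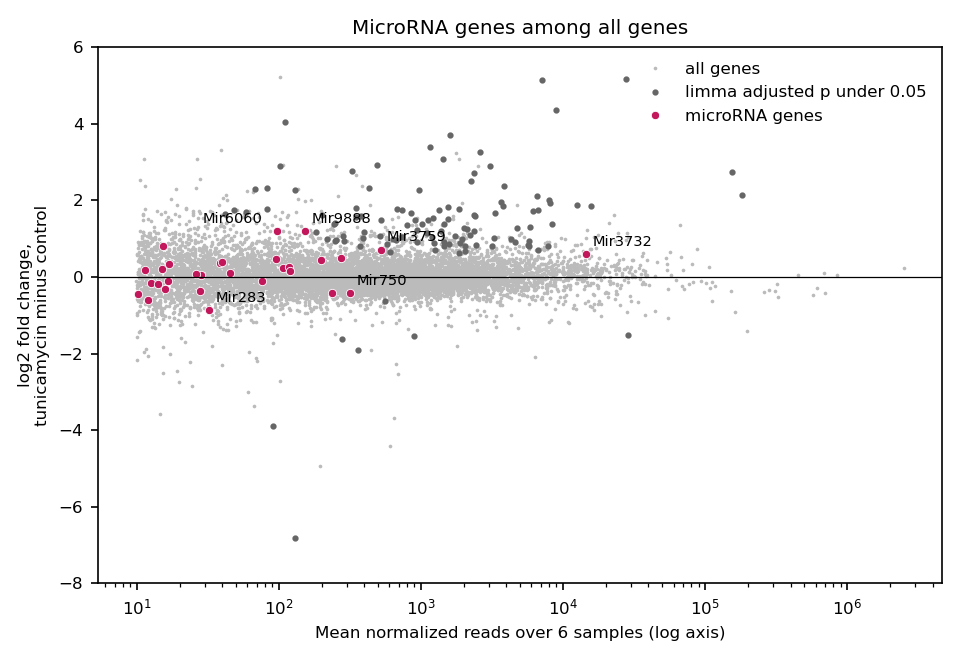
Log2 fold change (tunicamycin minus control) against mean normalized reads (log axis) for all 10013 genes in grey, those past a limma adjusted p of 0.05 in dark grey, and the 30 microRNA genes in pink. The microRNA genes lie within the grey cloud, with Mir6060 and Mir9888 at its upper side and none among the dark points.

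Mir9865, Mir3732 and Mir3759 were among the 5 microRNA genes with the most reads. Mir9865 held 261, 225 and 195 normalized reads in the DMSO controls, and 323, 283 and 359 with tunicamycin. The groups did not overlap, though the lowest tunicamycin sample was close to control 1 (log2 0.50, SE 0.17; limma adjusted p = 0.221). One of its neighbours, LOC410295, had 372, 267 and 286 against 269, 355 and 391, so that its groups overlapped (log2 0.13, SE 0.20). The other, LOC410296, had the opposite sign, with 159, 391 and 324 against 198, 379 and 160.3 and overlapping groups (log2 -0.25, SE 0.42).

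Mir3732 alone took between 78.1% and 87.9% of the reads of all 30 genes in a sample. This gene had no match in the reference table, and what its reads come from could not be worked out. Its level is therefore not read as that of a microRNA transcript. Mir3732 held 8784, 12385 and 13826 normalized reads in the DMSO controls, and 19959, 19466 and 13192 with tunicamycin. Samples 2 and 3 were above every control and sample 4 lay within the control range (log2 0.59, SE 0.23; limma adjusted p = 0.291). Only 197 of the 10013 genes had a higher mean. The 30 genes together made up 0.0483% to 0.0675% of reads in controls and 0.0697% to 0.0949% in tunicamycin, and without Mir3732 they made up 0.00939% to 0.0106% and 0.0101% to 0.0145%. The sums without it overlapped between the groups.

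Mir3759 had the widest spread among the tunicamycin samples of the 5, relative to its mean. It held 318, 395 and 372 normalized reads in the DMSO controls, and 1031, 738 and 268 with tunicamycin. Samples 2 and 3 were above every control, while sample 4 was below all of them (log2 0.71, SE 0.45; limma adjusted p = 0.501). Without tunicamycin sample 4 the log2 fold change was 1.27 and the adjusted p 0.0799. Mir3732 and Mir3759 thus shared a low sample 4, whereas Mir6060 and Mir9888 had a low sample 3. The summed alpha-glucosidase genes were also lowest in tunicamycin sample 4, at 701920 normalized reads against 1161824 and 1302930. Their part in these values was not tested.

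Mir750 and Mir1175 are next to each other and lie inside one protein-coding gene, LOC100578661. Mir750 held 384, 304 and 408 normalized reads in the DMSO controls, and 255, 258 and 299.8 with tunicamycin. Every tunicamycin sample was below every control, by a narrow margin between tunicamycin sample 4 and control 2 (log2 -0.42, SE 0.16; limma adjusted p = 0.273). Mir1175 held 299, 219.6 and 297 against 201, 234 and 172. Its groups overlapped (log2 -0.42, SE 0.19; limma adjusted p = 0.343). The surrounding gene had the opposite sign, with 1124, 1182 and 1383 among controls, against 2547, 1360.4 and 1899 under tunicamycin. Its tunicamycin sample 3 lay within the control range (log2 0.61, SE 0.22; limma adjusted p = 0.262). Per 100 reads of LOC100578661, Mir750 had 34.2, 25.7 and 29.5 among controls, against 10, 19.0 and 15.8 under tunicamycin. Mir1175 had 26.6, 18.6 and 21.5 per 100 against 7.87, 17.2 and 9.04. Both ratios lay below every control in all 3 tunicamycin samples, but they share LOC100578661 as denominator and are not separate observations. How often ratios of other gene pairs part between the groups was not worked out. Among single genes, 10.7% of all genes had tunicamycin below every control. The difference between the microRNA genes and the surrounding gene was not tested. Apart from Mir2-3, the ratios of all other microRNA genes to a listed gene around them overlapped between the groups.

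**Figure D4:**
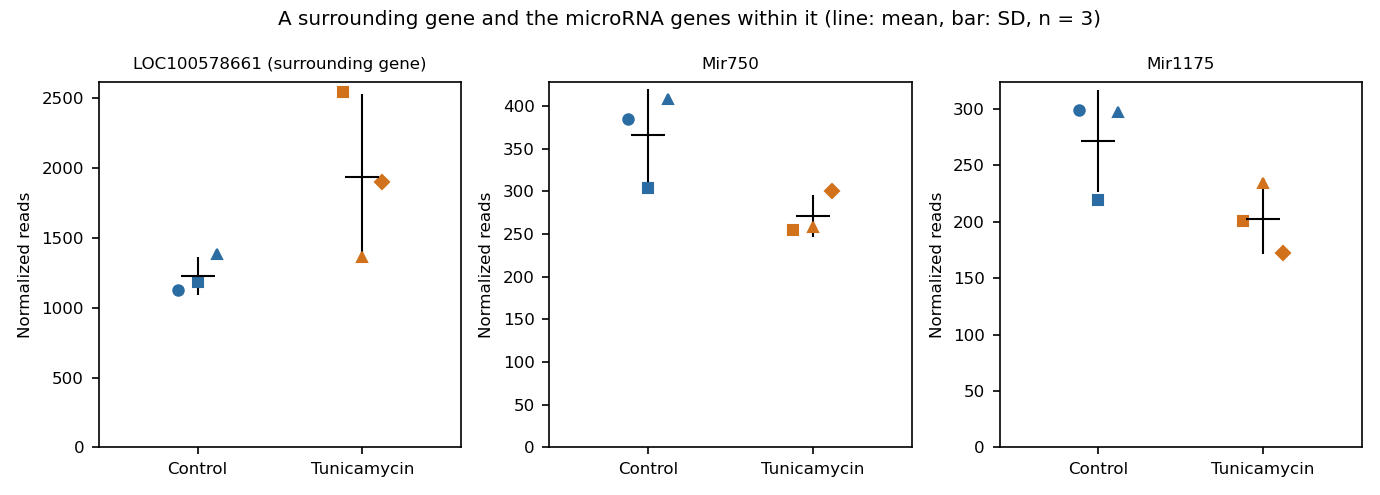
Normalized reads of LOC100578661 and of Mir750 and Mir1175, which lie within it, in each sample (blue circles, squares and triangles for controls 1, 2 and 3; orange squares, triangles and diamonds for tunicamycin 2, 3 and 4), with mean and SD for 3 samples a group and axes from 0. The surrounding gene has the higher mean under tunicamycin, and the 2 microRNA genes have the lower.

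In all, 14 of the 30 lie inside 11 protein-coding genes of the reference table, 1 (Mir281) lies inside a long non-coding RNA gene only, and 14 lie between genes. The table gives no strand and the strand setting of the counting is not given in the sources used here, so sense and antisense reads cannot be told apart. Of 15 pairs of a microRNA gene and a listed gene around it, 11 had the same sign of fold change and 4 the opposite. None of the 12 listed surrounding genes passed in limma, edgeR or DESeq2, and 4 had an unadjusted limma p under 0.05, of which 3 were higher and 1 lower. Of 18 listed neighbours of the remaining microRNA genes, none passed in limma or edgeR, 4 had an unadjusted limma p under 0.05, again 3 higher and 1 lower, and LOC724919 and LOC412330 were higher in DESeq2. Over all genes the shares were 8.99% higher and 6.56% lower at that unadjusted p, and 4.26% higher in DESeq2. Nothing particular to these 12 and 18 genes is read from counts of this size. LOC412330 lies beside Mir6037 and was at log2 0.76 (SE 0.20; limma adjusted p = 0.145; DESeq2 adjusted p = 0.010). Mir6037, named after its values were seen, held 36.0, 33.5 and 33.0 among controls, against 48.0, 35.9 and 53.7 under tunicamycin (log2 0.40, SE 0.26; limma adjusted p = 0.512), with tunicamycin sample 3 at the level of the controls.

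Mir125, Mirlet7 and Mir100 follow each other along the chromosome. The let-7 and miR-125 families control developmental timing in nematodes and flies, and in flies the 3 are made from a single primary transcript. Mir125 held 213, 46.5 and 99.1 normalized reads in the DMSO controls, and 168, 69.8 and 117 with tunicamycin. Mirlet7 held 32.0, 11.2 and 10.7 against 20.7, 8.46 and 17.0, and Mir100 held 55.0, 13.0 and 27.2 against 42.5, 14.8 and 14.1. All 3 were highest in control 1, at 2.93, 2.93 and 2.73 times the mean of the other controls, and all 3 were highest in sample 2 among the tunicamycin samples. The groups overlapped throughout, and the log2 fold changes of 0.16 (SE 0.56), -0.12 (SE 0.56) and -0.36 (SE 0.63) were smaller than their errors. Without control 1 they were 0.70, 0.37 and 0.13, with limma adjusted p of 0.471, 0.742 and 0.932. The sign turned without control 1 for Mirlet7 and Mir100, without tunicamycin sample 3 for Mirlet7 (0.24), and without control 2 (-0.38) or tunicamycin sample 2 (-0.14) for Mir125, which was also negative in edgeR and DESeq2 (-0.02 in each).

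**Figure D5:**
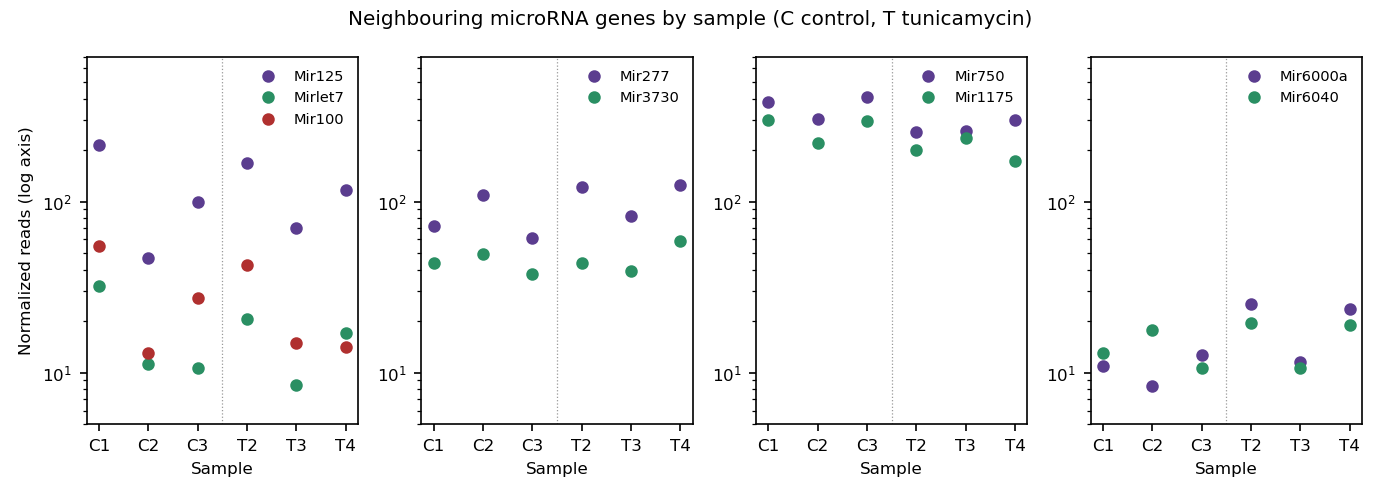
Normalized reads (log axis) of microRNA genes that are next to each other in the reference table, by sample: Mir125, Mirlet7 and Mir100; Mir277 and Mir3730; Mir750 and Mir1175; Mir6000a and Mir6040. In the first panel control 1 and tunicamycin 2 are the highest samples of their groups for all 3 genes.

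There were 5 such pairs of neighbours, covering 9 genes. Across the 6 samples the log2 values of Mir125 and Mirlet7 gave a Pearson r of 0.87 (exact permutation p = 0.0278, adjusted over the 5 pairs 0.118) and a Spearman rho of 0.83 (exact permutation p = 0.0583, adjusted 0.292). With the samples farthest from the median of Mir125 (controls 1 and 2) left out, r over the few remaining samples was 0.96. In the pairs that follow, the samples left out were likewise chosen by the gene named first. Mir100 and Mirlet7 had r = 0.76 and rho = 0.54 (exact permutation p = 0.0917 and 0.297, adjusted 0.118 and 0.356), and r was -0.20 without control 1 and tunicamycin sample 2, so that this relation rests on those samples. Mir1175 and Mir750 had r = 0.74 and rho = 0.66 (exact permutation p = 0.0944 and 0.175, adjusted 0.118 and 0.292), and r was 0.89 without control 1 and tunicamycin sample 4. With each group's mean taken off first, r for this pair was 0.36, while for the other 4 pairs it lay between 0.48 and 0.88. Mir277 and Mir3730 had r = 0.75 and rho = 0.71 (exact permutation p = 0.0694 and 0.136, adjusted 0.118 and 0.292), with 0.74 left after removing controls 1 and 3. Mir6000a and Mir6040 had r = 0.53 and rho = 0.49 (exact permutation p = 0.314 and 0.356, adjusted 0.314 and 0.356), which turned to -0.97 without tunicamycin samples 2 and 4. None of the 5 passed after adjustment, all tests being two-sided. The median r was 0.75 over these 5 pairs and 0.10 over the other 430 pairs of microRNA genes, whose quartiles were -0.24 and 0.43. Those 430 include Mir100 and Mir125, the outer genes of 1 run, at r = 0.86. The 5 pairs are not independent, since Mirlet7 is in more than 1 of them. The r values of neighbours are a description, since reads that cover a pair of neighbouring hairpins may be shared.

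Mir277 and Mir3730 lie inside LOC102655904. The fly miR-277 regulates the breakdown of branched-chain amino acids. Mir277 held 72.0, 109.8 and 61.2 normalized reads in the DMSO controls, and 122, 82.5 and 125 with tunicamycin, and the groups overlapped (log2 0.46, SE 0.29; limma adjusted p = 0.493). Mir3730 held 44.0, 49.3 and 37.9 against 43.6, 39.1 and 58.5 (log2 0.09, SE 0.26). The surrounding gene was at log2 0.37 (SE 0.15; limma adjusted p = 0.300).

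Mir6000a and Mir6040 lie inside LOC725462 and held few reads. Mir6000a had 11.0, 8.38 and 12.6 among controls, against 25.1, 11.6 and 23.6 under tunicamycin, with sample 3 within the control range (log2 0.80, SE 0.43; limma adjusted p = 0.429). Mir6040 had 13.0, 17.7 and 10.7 against 19.6, 10.6 and 18.9 (log2 0.21, SE 0.41). LOC725462 was at log2 0.33 (SE 0.37). In the reference table Mir6000a overlaps another copy, Mir6000b, so how its reads were assigned is uncertain.

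Mir8, Mir281, Mir276 and Mir7 had log2 fold changes smaller than their SE. Mir8, whose fly counterpart promotes body growth through insulin signalling, held 9.0, 12.1 and 9.71 normalized reads in the DMSO controls, and 7.63, 20.1 and 10.4 with tunicamycin. It was highest in tunicamycin sample 3 and lowest in sample 2 (log2 0.19, SE 0.48). Mir281, abundant in the midgut of mosquitoes, held 84.0, 94.0 and 57.3 against 69.8, 60.3 and 87.7, with overlapping groups (log2 -0.10, SE 0.26). Mir276, which acts in olfactory memory in flies, held 25, 27.0 and 28.2 against 24.0, 20.1 and 44.3. Sample 4 was above every control and the others below (log2 0.06, SE 0.36), and its surrounding gene LOC725329 was at log2 0.27 (SE 0.25). Mir7, a regulator of Notch signalling in flies and also named after its values were seen, held 12, 35.4 and 27.2 against 49.1, 16.9 and 16 (log2 0.07, SE 0.57). Its highest value was in tunicamycin sample 2 and its lowest in control 1, as it was for the surrounding gene LOC409007, which had a log2 fold change of 0.37 (SE 0.20).

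Mir283 had the largest negative fold change of the 30. It held 37.0, 22.3 and 66.0 normalized reads in the DMSO controls, and 36.0, 11.6 and 19.8 with tunicamycin. The groups overlapped (log2 -0.87, SE 0.53; limma adjusted p = 0.483), and without control 3 the log2 fold change was -0.48. Its surrounding gene LOC411348 was at log2 -0.22 (SE 0.15). Mir2-3, of a family that represses cell death genes in flies, was named after its values were seen. It held 10, 14.9 and 18.5 against 14.2, 6.34 and 7.54 (log2 -0.61, SE 0.47; limma adjusted p = 0.580). Its surrounding gene LOC726544 was at log2 0.21 (SE 0.14). Mir2-3 per 100 reads of LOC726544 was 0.478, 0.652 and 0.761 among controls, against 0.448, 0.272 and 0.310 under tunicamycin. This ratio was lower in each tunicamycin sample than in every control, at counts of few reads. How often ratios of other gene pairs part in this way was not worked out.

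Groups that did not overlap were found for 5 of the 30 microRNA genes. The 4 with tunicamycin above (13.3%, against 11.0% of all genes) were Mir6060, Mir9888, Mir9865 and Mir3726, and the single one with tunicamycin below (3.33%, against 10.7%) was Mir750. Mir3726, also named after its values were seen, held 87.0, 101 and 108 among controls, against 118, 113 and 114 under tunicamycin (log2 0.23, SE 0.17; limma adjusted p = 0.572), beside log2 0.38 (SE 0.15) for its surrounding gene LOC408920. Another gene named in this way, Mir6065, was split within each group. It held 69.0, 16.8 and 20.4 among controls, against 18.5, 48.6 and 56.6 under tunicamycin, so that control 1 was 3.71 times the mean of the other controls (log2 0.36, SE 0.63; without control 1 0.97, limma adjusted p = 0.388).

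The remaining 7 genes lay between log2 -0.44 (Mir9889) and 0.43 (Mir6053), with limma adjusted p from 0.490 to 0.902. They were Mir6053, Mir279c, Mir9883, Mir9889, Mir6046, Mir87-1 and Mir3784. The groups overlapped in all 7, and of these Mir6053 and Mir9883 had mean values of 197 and 118 while the other 5 were under 20. Within the tunicamycin group, sample 3 was the lowest for 19 of the 30 microRNA genes and sample 2 the highest for 17. The members' median deviation from the group mean was -0.34 in sample 3, 0.28 in sample 2 and 0.11 in sample 4 on the log2 scale. In the controls it was between -0.05 and 0.06. Over all genes it was 0.00 in each tunicamycin sample, a value largely set by the size-factor scaling. Lowest and highest samples were not counted over all genes, and genes of like read level were not compared. Nothing particular to the microRNA genes is therefore read from these values.

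Of the enzymes that make and use microRNAs, 40 names were searched, older and alternative names included, and 1 gene was matched, the Dicer gene Dcr-1. It held 389, 284 and 209 normalized reads in the DMSO controls, and 312, 466 and 421 with tunicamycin. Control 1 lay above tunicamycin sample 2, and the gene did not pass (log2 0.47, SE 0.26; limma adjusted p = 0.433; DESeq2 adjusted p = 0.462). Drosha, its partner and the Argonautes were among the names searched and matched no row, so they were not analysed. Whether they are listed under other identifiers was not worked out.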

How the data were processed

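Per the submitters' processing notes the reads went through Trimmomatic 0.36, STAR, Subread and DESeq2; roles, settings, strand and build: not given in the sources used here. The 3 tables the authors deposited hold a normalized signal per gene, its reads over the sample's size factor. Whole reads could be recovered for 100% of the values in all 6 columns (tolerance 0.001 of a read); in control 1 this rests on large values. No 2 samples of a group were alike within counting noise (chi-square per degree of freedom between 44.9 and 177.8). The members and lists were chosen with earlier results of these data known.

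Under R 4.3.3, limma 3.58.1 with a mean-variance trend was the main test, applied to log2(value + 1) for all 10013 genes and 6 samples, with group as the sole term and Benjamini-Hochberg adjustment; a minimum mean of 1 removed no gene. Fold changes on this scale understate those of low genes. edgeR 4.0.16 (quasi-likelihood, TMM) and DESeq2 1.42.0 were run on the recovered reads, and the scripts were tested on simulated data. TMM scaling, a smaller pseudocount (0.1), a minimum of 1 CPM, blocks and the removal of each sample were alternatives. The genes given in every sample were those with an unadjusted limma p under 0.05 or called by another tool, the 5 with the highest mean, the 3 with the largest change, neighbours, and those with known roles in insects; others named after their values were seen are marked. Overlapping and neighbouring genes were read from a reference table of assembly Amel_HAv3.1, which may not be the authors' build, so no coordinates are given.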

Additional observations from a re-analysis of the deposited data

How the results depend on the processing

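No microRNA gene passed in limma under any alternative or in edgeR; DESeq2 called 2 microRNA genes and 2 of their neighbours. Over all genes limma called 113, DESeq2 518, and the fits with 1 sample left out between 20 (without control 3) and 202 (without control 1). Samples with the same number correlated at -0.12 and -0.10 in their deviations from the group means and those of the same table at 0.05, 0.15 and 0.05, so neither is known to pair them. The replicate block by deposited table called 44 genes and the 4-sample fit with a replicate block on the shared number called 4; neither called a microRNA gene. In 380 alternatives for the 30 microRNA genes, 2 gained a call (Mir6060 and Mir9888 in DESeq2) and 25 changed sign, in 13 genes that were within their errors in the main fit. For Mir6060 the log2 fold change ran from 0.75 to 1.59 and the adjusted p from 0.0274 to 0.556, and for Mir9888 from 0.84 to 1.47 and from 0.0145 to 0.475. The members' median stayed between 0.11 and 0.25.

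The cause of the sign changes was not tested. With the block by shared number the log2 fold change was -0.06 for Mir3730, -0.32 for Mir276, 0.40 for Mir100, 0.27 for Mirlet7, -0.10 for Mir7 and -0.05 for LOC725462. For Mir125 it was -0.02 in edgeR and in DESeq2. With each sample left out in turn it ran from -0.02 to 0.97 for Mir6065, -0.31 to 0.05 for Mir281, -0.42 to 0.20 for Mir279c, -0.07 to 0.21 for Mir3730, -0.27 to 0.28 for Mir276, -0.86 to 0.13 for Mir100, -0.37 to 0.37 for Mirlet7, -0.38 to 0.70 for Mir125, -0.44 to 0.37 for Mir7, -0.73 to 0.11 for Mir9889, -0.59 to 0.07 for Mir6046, -0.18 to 0.47 for Mir8, -0.49 to 0.20 for Mir3784 and -0.04 to 0.58 for LOC725462. A mean of at least 1 CPM left out 10 of the 30. The mean was under 20 reads in 10 of the 30, and the size of difference that could be detected in them was not tested.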
